A study of Mus musculus with 6 samples.

Results

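The primary cilium genes of the mouse prefrontal cortex (PFC) were followed in control (CTL) mice and in mice with early life stress (ELS). The genes were taken by symbol: those whose names start with Ift or Bbs followed by a number, those starting with Nphp or Tctn, and single genes such as Cys1, Arl13b, Adcy3, Sstr3, Pkd1 and Dlec1. A gene was kept where it had at least 1 CPM, its count scaled to the size of the library, in all mice of either group. Of 22000 gene symbols in the table, 44 were taken by name and all 44 passed this minimum, against 13185 that passed in the whole table. In 43 of the 44, every one of the 6 mice had at least 1 CPM. The exception was Dlec1, which passed through the control mice alone, with a lowest value of 1.90 CPM there and 0.927 CPM in the ELS mice on total counts. The next gene above the minimum was Bbs12, at 3.19 CPM in its lowest mouse, and no gene taken by name fell below. The list was thus selected on names and on this CPM level, and around Cys1, which was chosen by its difference between the groups in an earlier analysis of these same mice. The values of Cys1 and Dlec1 are therefore a description.

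RNA-seq was run on bulk PFC of 3 CTL and 3 ELS mice, all wild-type male C57BL/6N at 9 weeks, with 1 library per mouse. ELS mice were housed singly in cages with a filter cap from weaning, whereas CTL mice were co-housed with other males in a cage without a cap. Both groups came from litters of the same mothers and went through behavioral tests before dissection. Isolation and the filter cap went together, so they cannot be told apart. Total counts ran from 28405795 to 35241743 per mouse and were higher in every ELS mouse than in every CTL mouse. All 7 cortical excitatory neuron markers passed the CPM minimum, with summed levels from 2034 to 2338 CPM. CTL mouse 3 and ELS mouse 1 stood apart by summed striatal projection neuron markers, at 570 and 557 CPM, against 308 to 396 CPM in the other 4 mice. In bulk tissue, fewer cells of a type and less RNA per cell cannot be told apart.

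A primary cilium is a single, non-motile antenna that most neurons and astrocytes carry. It is built by intraflagellar transport (IFT), in which IFT-B trains are carried to the tip by kinesin motors and IFT-A trains serve the return and bring membrane proteins in. The BBSome moves receptors out of the cilium, the transition zone at its base acts as a gate, and the membrane holds receptors such as Sstr3 and Mchr1 and the cyclase Adcy3. In cortical neurons, Adcy3 is the usual marker of the cilium.

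Across the 44 genes, the PFC of ELS mice differed little from that of CTL mice, apart from Cys1 and Dlec1. Of the 44, 42 had an absolute log2 fold change under 0.3 (95.5%, against 95.4% of all genes tested), and in 27 the change was smaller than its own standard error. Lower values in ELS mice were seen in 32 genes and higher values in 12, with a median log2 fold change of -0.040, against -0.0046 over all genes tested. Leaving out Cys1 and Dlec1, 30 of 42 genes were lower and the median was -0.037. A value below 0 was found in 52.4% of all genes tested. The 95% interval of the fold change lay wholly within 0.3 on either side of 0 for 28 of the 44 genes (63.6%), as it did for 61.4% of all genes tested. A gene was called differentially expressed (DEG) where edgeR's quasi-likelihood test gave an adjusted p under 0.05 together with a log2 fold change over 0.3 in size. None of the 44 was called, while 0.0152% of all genes tested were (2 genes). At an unadjusted p under 0.05 there were 3 of the 44, Cys1, Dlec1 and Pkd1, against 4.23% of all genes tested. All 3 were lower in ELS mice, as were 2.34% of all genes tested, and none of the 44 was higher, as were 1.89%. Without Cys1 and Dlec1, 1 of 42 genes remained, Pkd1 (2.38%). DESeq2 called 1 of the 44, Cys1, with 0.137% of all genes called, and the edgeR likelihood ratio test called 2, Cys1 and Dlec1, with 0.212% of all genes called.

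**Figure D1:**
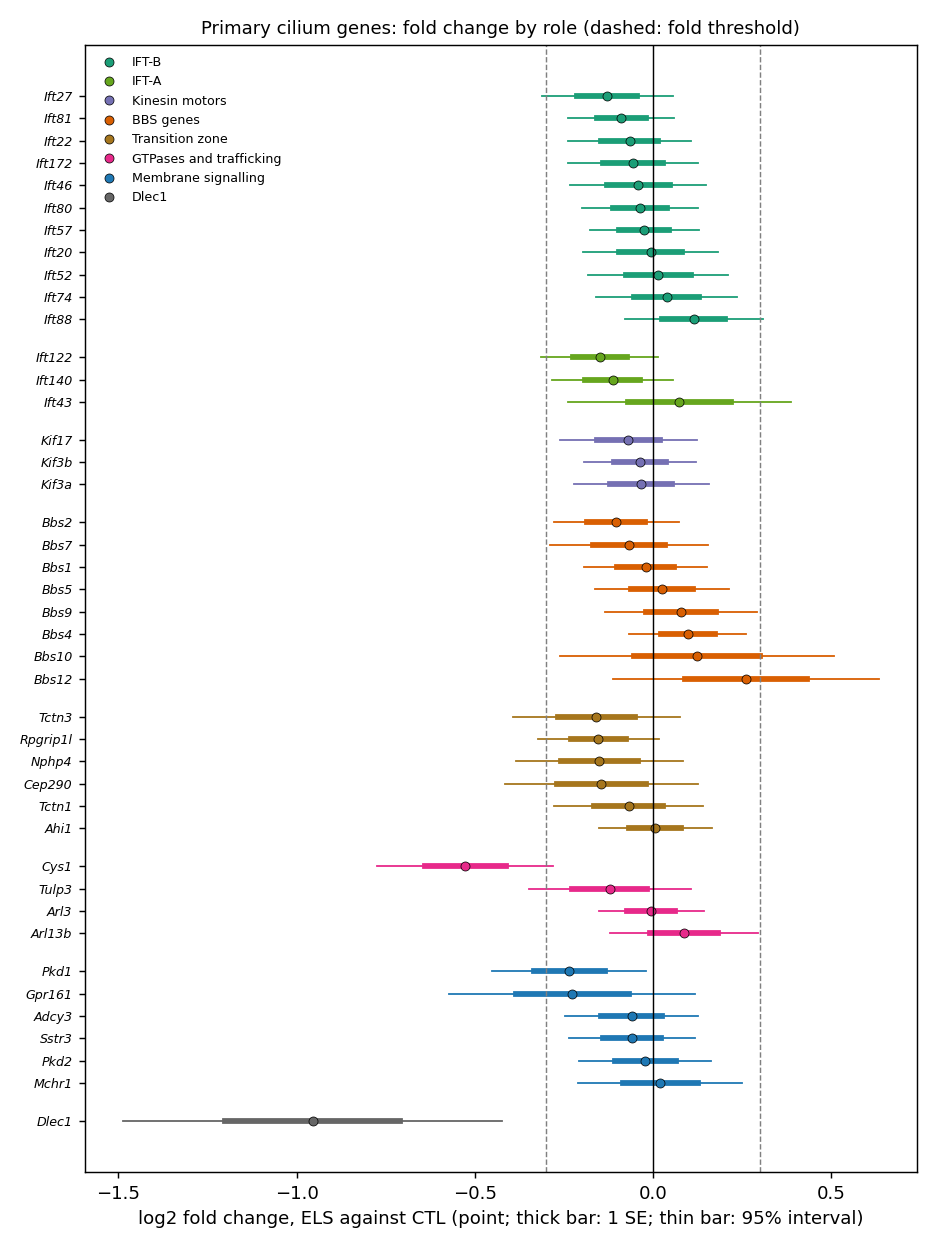
Fitted log2 fold change (ELS against CTL, x axis) of 42 of the 44 genes, one row per gene, colored by role; thick bars are 1 standard error, thin bars 95% intervals, and dashed lines mark 0.3 on either side of 0. Cys1 (-0.53) and Dlec1 (-0.96) lie beyond the dashed line, and the other 40 genes drawn lie between -0.24 and 0.26.

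The values of the ELS mice and the CTL mice did not overlap in 8 of the 44 genes (18.2%), against 8.28% of all genes tested. These were Cys1, Dlec1, Ift122, Ift140, Ift27, Ift81, Bbs2 and Rpgrip1l. All 8 were lower in ELS mice, a direction in which 4.47% of all genes tested did not overlap, and none was higher, against 3.81%. Without Cys1 and Dlec1, 6 of 42 genes remained (14.3%).

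Cys1 encodes cystin, a lipid-anchored protein of the ciliary membrane whose loss causes recessive polycystic kidney disease in the cpk mouse. Its gene spans chr12:24665833-24681813 on the minus strand (GRCm38), and no other annotated gene overlaps its exons. CTL mice 1 to 3 had 14.7, 11.9 and 14.2 CPM, and ELS mice 1 to 3 had 9.96, 8.58 and 9.80 CPM. Every ELS mouse was below every CTL mouse, and the lowest CTL mouse was mouse 2. The mean level was 13.6 ± 1.46 CPM for CTL and 9.45 ± 0.753 CPM for ELS (SD over n = 3), a 1.44-fold difference. The log2 fold change was -0.53 with a standard error of 0.114 and a 95% interval from -0.77 to -0.28. With edgeR's quasi-likelihood test the adjusted p was 0.374, and over the alternatives it ran from 0.0102 to 1. Per kb of exon, Cys1 stood at 4.61 CPM in CTL mice, higher than 40.8% of the genes tested. The 250 bases before its RefSeq start, at chr12:24681796-24682045 of GRCm38.p6 (minus strand), are shown because Cys1 ranked first of the 44 genes by the quasi-likelihood test. The span above is from GENCODE, whose start lies farther upstream, so the last of these bases fall within it. The 50 bases nearest to the RefSeq start are in capitals, and 61.2% of the 250 bases are G or C.
Cys1: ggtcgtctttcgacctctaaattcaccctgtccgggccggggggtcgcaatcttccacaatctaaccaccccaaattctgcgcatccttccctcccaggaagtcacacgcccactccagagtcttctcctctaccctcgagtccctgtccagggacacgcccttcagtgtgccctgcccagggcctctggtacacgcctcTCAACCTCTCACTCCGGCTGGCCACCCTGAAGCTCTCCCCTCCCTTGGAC

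Dlec1, first described as a gene deleted in lung and esophageal cancer and also known from motile cilia, had the largest fold change of the 44 genes and the lowest level. Its gene spans chr9:119102478-119148246 on the plus strand (GRCm38). It had 1.92, 2.69 and 1.99 CPM in CTL mice 1 to 3 and 1.05, 1.40 and 0.930 CPM in ELS mice 1 to 3, from as few as 30 reads per mouse. The groups did not overlap. The log2 fold change was -0.96 with a standard error of 0.245, and the adjusted p of edgeR's quasi-likelihood test was 0.705. Per kb of exon it stood at 0.328 CPM in CTL mice, above 2.07% of the genes tested. Ependymal cells carry motile cilia, and the summed level of 15 of their markers was 20.8 to 30.0 CPM in CTL mice and 22.2 to 32.8 CPM in ELS mice, and CTL mouse 2, which had the highest Dlec1, had the lowest sum. Foxj1, the master regulator of motile cilia, had 4.68, 5.91 and 6.08 CPM in CTL mice and 5.67, 4.12 and 4.56 CPM in ELS mice, and the groups overlapped. Of the 6 ependymal markers that passed the CPM minimum, 4 had log2 fold changes below 0, with a median of -0.11 and a range from -0.37 (Cfap44) to 0.17 (Spag6l). None of the 6 had an unadjusted p under 0.05, and the part of these cells in the Dlec1 values was not tested.

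Of the membrane proteins, Pkd1 had the largest difference. It encodes polycystin-1, the large receptor-like partner of the channel Pkd2. It had 97.9, 95.5 and 75.9 CPM in CTL mice 1 to 3 and 68.3, 81.7 and 78.8 CPM in ELS mice 1 to 3. CTL mouse 3 lay among the ELS mice, so the groups overlapped. The log2 fold change was -0.24 with a standard error of 0.0997, and the adjusted p was 1 in edgeR's quasi-likelihood test. Without CTL mouse 3 the log2 fold change was -0.34 with an adjusted p of 0.0879 in the same test, the lowest for Pkd1 over the alternatives. Without CTL mouse 1, CTL mouse 2 or ELS mouse 1 it was -0.17, -0.19 or -0.16, and in 4 of the 6 fits that dropped a mouse Pkd1 no longer had an unadjusted p under 0.05. Tsc2 overlaps 3.98% of the Pkd1 exons on the opposite strand. The other 5 membrane proteins, Adcy3, Sstr3, Mchr1, Gpr161 and Pkd2, had log2 fold changes from -0.23 to 0.020, and none passed at an unadjusted p under 0.05. Adcy3 had 56.6, 58.0 and 46.4 CPM in CTL mice and 51.1, 53.4 and 49.9 CPM in ELS mice, with CTL mouse 3 the lowest of the 6. Its 95% interval ran from -0.25 to 0.13, and Cenpo overlaps 22.1% of its exons on the opposite strand. Sstr3 and Mchr1, the receptors for somatostatin and melanin-concentrating hormone, had intervals from -0.24 to 0.12 and from -0.21 to 0.25.

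**Figure D2:**
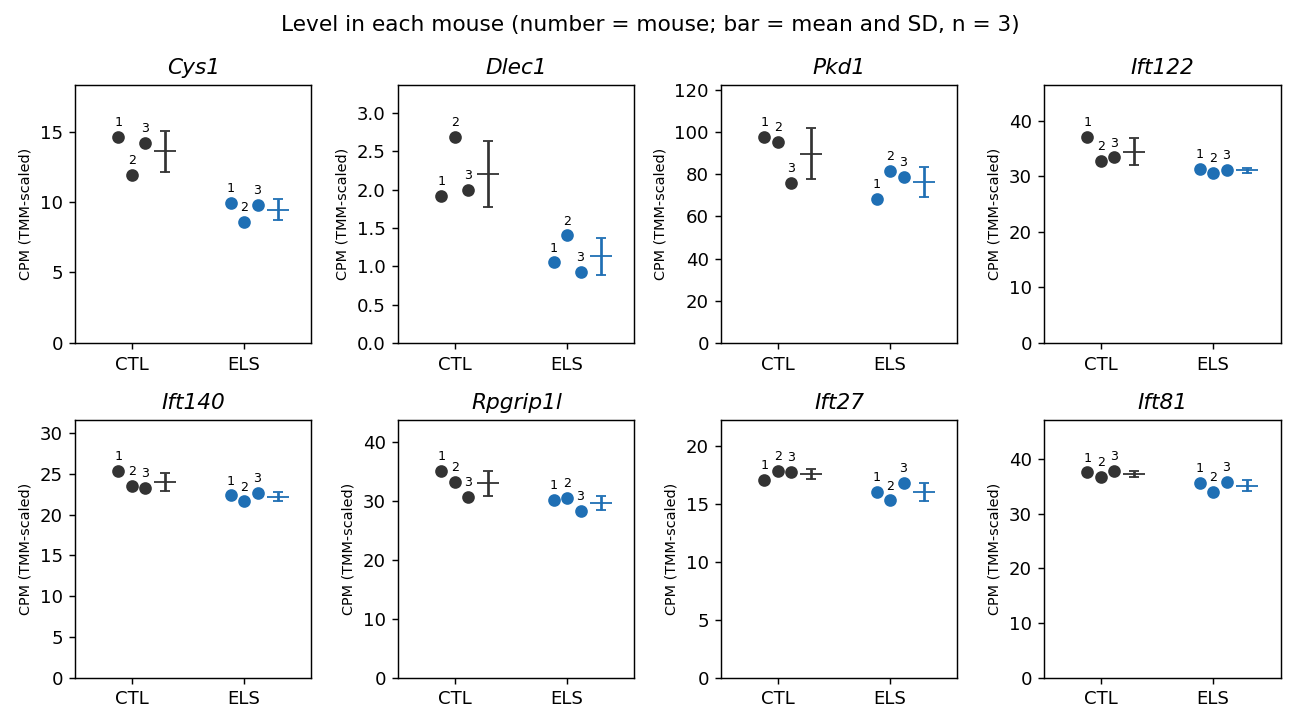
Level (TMM-scaled CPM, y axis from 0) of Cys1, Dlec1, Pkd1 and 5 further genes in each of the 3 CTL and 3 ELS mice; numbers give the mouse and bars the mean with SD. In Cys1 every ELS mouse is at or below 9.96 CPM and every CTL mouse at or above 11.9 CPM, whereas in Pkd1 CTL mouse 3 (75.9 CPM) lies among the ELS mice.

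Of the 3 IFT-A genes, 2 had values below 0 and 1 above, and none had an unadjusted p under 0.05. Ift122 and Ift140 encode large subunits of the IFT-A core, and Ift43 a small one. Ift122 had 37.1, 32.8 and 33.4 CPM in CTL mice and 31.3, 30.6 and 31.2 CPM in ELS mice. Ift140 had 25.3, 23.5 and 23.3 CPM in CTL mice and 22.3, 21.6 and 22.6 CPM in ELS mice. In both genes the groups did not overlap, but the gaps were small, with log2 fold changes of -0.15 (standard error 0.0757) and -0.11 (standard error 0.0781), and neither was called. Ift43 had 6.92, 7.15 and 6.95 CPM in CTL mice and 8.88, 7.01 and 6.23 CPM in ELS mice, a wide spread in ELS mice that covered all of the CTL mice. The symbols did not take in the IFT-A subunits Wdr19, Wdr35 and Ttc21b. Wdr19 had 25.8, 26.4 and 21.1 CPM in CTL mice and 22.9, 24.0 and 22.6 CPM in ELS mice, which overlapped, and Wdr35 had a log2 fold change of 0.033. Ttc21b had 12.61, 12.04 and 11.46 CPM in CTL mice and 10.98, 10.78 and 11.26 CPM in ELS mice, without overlap. The log2 fold changes of Wdr19 and Ttc21b were -0.077 and -0.13, and none of these subunits had an unadjusted p under 0.05. The summed level of the 3 IFT-A genes taken by symbol was 63.4 to 69.4 CPM in CTL mice and 59.2 to 62.5 CPM in ELS mice. Most of this sum was Ift122 and Ift140, whose groups did not overlap. It leaves out Wdr19, Wdr35 and Ttc21b, and no sum with them was taken. Wdr35, more abundant than each of the 3, had 43.05, 39.81 and 41.53 CPM in CTL mice. It had 43.22, 42.3 and 41.77 CPM in ELS mice, and the groups overlapped.

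The 11 IFT-B genes ranged in log2 fold change from -0.13 (Ift27) to 0.11 (Ift88), with 8 below 0 and 3 above. Their summed levels overlapped, at 398 to 438 CPM in CTL mice and 403 to 412 CPM in ELS mice. Ift27, a Rab-like GTPase that helps the BBSome leave the cilium, had 17.1, 17.9 and 17.8 CPM in CTL mice and 16.1, 15.3 and 16.9 CPM in ELS mice. Ift81, which binds tubulin cargo together with Ift74, had 37.6, 36.7 and 37.8 CPM in CTL mice and 35.6, 34.0 and 35.8 CPM in ELS mice. The groups did not overlap in either gene, and the log2 fold changes were small, at -0.13 and -0.089. Ift20, which also serves at the Golgi, had 55.3, 63.0 and 70.6 CPM in CTL mice and 62.7, 59.6 and 65.7 CPM in ELS mice, so that the CTL mice spread on both sides of the ELS mice. No IFT-B gene had an unadjusted p under 0.05.

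The kinesin motors had the narrowest range of the role groups, with log2 fold changes from -0.069 to -0.033 for Kif17, Kif3b and Kif3a. Kif3a and Kif3b form the kinesin-2 motor that builds the cilium, and Kif17 is a second kinesin-2 that also carries receptors along dendrites. Kif3a had 131, 124 and 103 CPM in CTL mice and 117, 111 and 121 CPM in ELS mice. Kif17 had 29.3, 32.0 and 25.7 CPM in CTL mice and 27.7, 26.7 and 28.6 CPM in ELS mice. In both, the CTL mice enclosed the ELS mice, and CTL mouse 3 was the lowest of all 6. The 95% interval of Kif3a ran from -0.22 to 0.16.

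The 8 BBS genes were the only role group with a median above 0, at 0.051, and 5 of the 8 were higher in ELS mice. Bbs1, Bbs2, Bbs4, Bbs5, Bbs7 and Bbs9 encode BBSome subunits, and Bbs10 and Bbs12 chaperonin-like proteins needed to assemble it. Bbs12 had the largest difference, with 3.22, 3.97 and 4.12 CPM in CTL mice and 5.01, 4.66 and 3.85 CPM in ELS mice. ELS mouse 3 lay among the CTL mice, and the log2 fold change of 0.26 had a standard error of 0.172 and was 0.16 without CTL mouse 1. Bbs4, the most abundant per length, had 60.7, 57.7 and 66.6 CPM in CTL mice and 70.4, 63.9 and 63.4 CPM in ELS mice, which overlapped. Bbs2 was the exception to the direction of the group among the genes without overlap, with 20.0, 21.4 and 19.9 CPM in CTL mice and 19.8, 18.6 and 18.7 CPM in ELS mice. Its log2 fold change was -0.10 with a 95% interval from -0.28 to 0.072.

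Of the 8 transition zone genes, 7 had values below 0 and the median log2 fold change was -0.11. Rpgrip1l, a scaffold of the gate, had 35.02, 33.2 and 30.7 CPM in CTL mice and 30.2, 30.4 and 28.3 CPM in ELS mice. The lowest CTL mouse and the highest ELS mouse were within 1 CPM of each other, and the log2 fold change was -0.15 with a standard error of 0.0781. Tctn3, a tectonic of the same gate, had 20.5, 24.7 and 18.7 CPM in CTL mice and 20.5, 19.0 and 17.7 CPM in ELS mice, and these overlapped. Ahi1, a Joubert syndrome gene, had 166, 173 and 151 CPM in CTL mice and 174, 160 and 158 CPM in ELS mice, with a log2 fold change of 0.0053. Nphp4, Cep290 and Tctn1 had log2 fold changes from -0.15 to -0.069, and none of the 8 had an unadjusted p under 0.05. The summed level of the 8 was 270 to 312 CPM in CTL mice and 272 to 292 CPM in ELS mice.

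Among the GTPases and trafficking proteins, the genes other than Cys1 had small differences. Arl3, the GTPase that releases lipid-anchored cargo inside the cilium, had 96.9, 94.8 and 106 CPM in CTL mice and 100, 96.6 and 99.9 CPM in ELS mice. Its log2 fold change was -0.0058 with a 95% interval from -0.15 to 0.14. Arl13b, which activates Arl3, and Tulp3, which brings receptors in together with IFT-A, had log2 fold changes of 0.087 and -0.12, with intervals from -0.12 to 0.29 and from -0.35 to 0.11. A difference between Cys1 and these genes was not tested.

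Levels differed far more between the genes than between the groups. As CPM per kb of exon in CTL mice, the 44 genes ran from 0.328 for Dlec1 to 41.3 for Ift20, a 126-fold range, with a median of 5.17 against 6.44 over all genes tested with a matched length. Ift20, Arl3, Kif3a and Ahi1 stood highest, above 90.7%, 90.3%, 88.2% and 82.5% of the genes tested. Within the role groups, as taken by symbol, the spread per length was uneven. The 3 IFT-A genes lay within 1.47-fold of each other, the 8 BBS genes within 6.6-fold and the 11 IFT-B genes within 18.7-fold. These are not whole complexes. The IFT-A subunits Wdr19, Wdr35 and Ttc21b stood at 2.17, 5.70 and 1.30 CPM per kb in CTL mice, outside the range of the 3 IFT-A genes. The chaperonin-like Bbs12 and Bbs10 were the lowest of the BBS genes, at 1.55 and 1.85 CPM per kb, and Bbs4 the highest, at 10.2. Among the membrane proteins Adcy3 was highest, at 8.59 CPM per kb, followed by Sstr3 at 7.81 and Mchr1 at 6.88, and Gpr161, a brake on hedgehog signaling, was lowest at 1.03. Exon lengths were the union of all annotated isoforms, so genes with long minor isoforms read low.

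**Figure D3:**
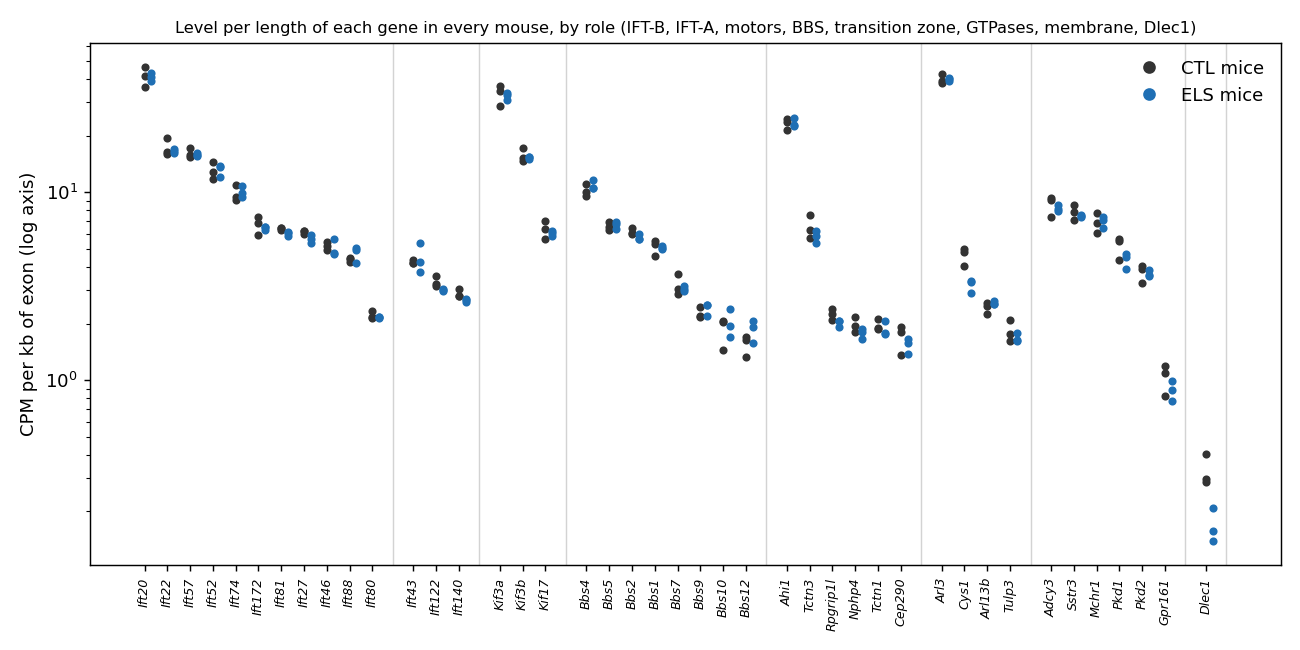
Level per length (TMM-scaled CPM per kb of exon, log axis) of 42 of the 44 genes in every CTL and ELS mouse, ordered by role and by level. Ift20 and Arl3 are near the top of the axis and Dlec1 is at the bottom, and CTL and ELS mice lie close together in most genes.

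Many genes of the cilium carry in their promoters an X-box, the paired half-sites bound by RFX transcription factors. Promoters of 250 bases before to 50 after the start were matched in RefSeq (GRCm38.p6) for 39 of the 44 genes. The X-box was written as the half-sites GTNNCC and GGNAAC with 2 bases of any kind between them, and searched on both strands. It was found in 8 of 39 genes (20.5%), against 1.86% of the other genes tested and 1.29% of all 32851 promoters. The letters were chosen after the sequences had been seen, and genes with several promoters had more chances to match. A stricter form with GTTNCC as the first half-site, which lies within it, was found in 3 of 39 (7.69%, against 0.566% of the other genes tested and 0.451% of all promoters), and the half-site GTTGCC, which can overlap both, in 16 (41%, against 15% and 12.5%). The matches are shown because the letters are shared by genes from different parts of the cilium. They are written 5′ to 3′ on the strand of the gene, capitals mark the match, which can read on either strand, and Ift22 has 2 of them.
Ahi1 (chr10:20952560-20952589, plus strand): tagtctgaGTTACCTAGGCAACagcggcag
Bbs1 (chr19:4906605-4906634, minus strand): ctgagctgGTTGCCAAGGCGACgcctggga
Bbs4 (chr9:59353464-59353493, minus strand): ctcagctgGTCGCCCGGGAAACggtcggct
Bbs7 (chr3:36613489-36613518, minus strand): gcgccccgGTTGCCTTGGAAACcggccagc
Ift22 (chr5:136908109-136908138, plus strand): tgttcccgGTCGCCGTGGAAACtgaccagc
Ift22 (chr5:136908079-136908108, plus strand): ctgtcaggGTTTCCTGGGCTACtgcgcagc
Ift57 (chr16:49699199-49699228, plus strand): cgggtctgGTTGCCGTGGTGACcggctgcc
Nphp4 (chr4:152477903-152477932, plus strand): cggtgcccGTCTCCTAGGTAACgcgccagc
Tctn1 (chr5:122264411-122264432, minus strand): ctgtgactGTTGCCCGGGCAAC

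The 8 genes with these letters had log2 fold changes from -0.15 to 0.097, with a median of -0.045, and the 31 without had a median of -0.043. Cys1 had no such match. Dlec1 had the half-site alone, just after its RefSeq start and within the GENCODE span given above, at chr9:119102501-119102522 (plus strand), shown with the half-site in capitals.
Dlec1: gcgtctctGTTGCCatggattc

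CTL mouse 3 stood apart from CTL mice 1 and 2 in several role groups. Each mouse was compared with the mean of all 6 on the scale of log2(CPM + 0.5). The kinesin motors lay at a median of -0.13 in CTL mouse 3, against 0.15 and 0.072 in CTL mice 1 and 2, and the membrane proteins at -0.14, against 0.16 and 0.14. The IFT-B genes lay at 0.099 in this mouse, against -0.033 and -0.011. Length moved with part of this pattern. Of the motors, Kif3b (5635 bp of exon) was among the longer genes. Kif3a (3586 bp) and Kif17 (4582 bp) were among the shorter ones, although both were lowest in CTL mouse 3. The 22 genes with the longer exons lay at -0.045 in CTL mouse 3 and -0.045 in ELS mouse 1, and at 0.091 and 0.084 in CTL mice 1 and 2, whereas the 22 shorter genes lay at 0.058 and 0.017, and at -0.027 and -0.001. In ELS mice 2 and 3, the longer of the 44 genes lay at -0.02 and -0.034. The shorter ones lay below 0 there as well, at -0.033 and -0.051. Over all genes tested, the longer ones lay at -0.051 in CTL mouse 3 and the shorter ones at 0.055. Without CTL mouse 3, 10 of the 44 genes had an unadjusted p under 0.05 (22.7%), against 11.7% of all genes tested. Without Cys1 and Dlec1 these were 8 of 42 (19%). The 10 were Cys1, Dlec1, Pkd1, Adcy3, Cep290, Gpr161, Ift122, Rpgrip1l and Tctn3, all lower in ELS mice, and Bbs4, which was higher. None was called, and 8 of the 10 were among the longer genes. Without both CTL mouse 3 and ELS mouse 1 there were 7 of the 44 (15.9%, against 8.74% of all genes tested), or 5 of 42 (11.9%) without Cys1 and Dlec1. By median deviation, cortical excitatory neuron markers lay at 0.129, 0.1 and -0.11 in CTL mice 1 to 3. In ELS mice 1 to 3 they lay at -0.083, 0.08 and -0.098. Oligodendrocyte markers lay at -0.084, -0.087 and 0.236 in CTL mice, and at 0.11, -0.123 and -0.034 in ELS mice. The parts of exon length, of striatal tissue and of these cell types in the values of the cilium genes were not tested.

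**Figure D4:**
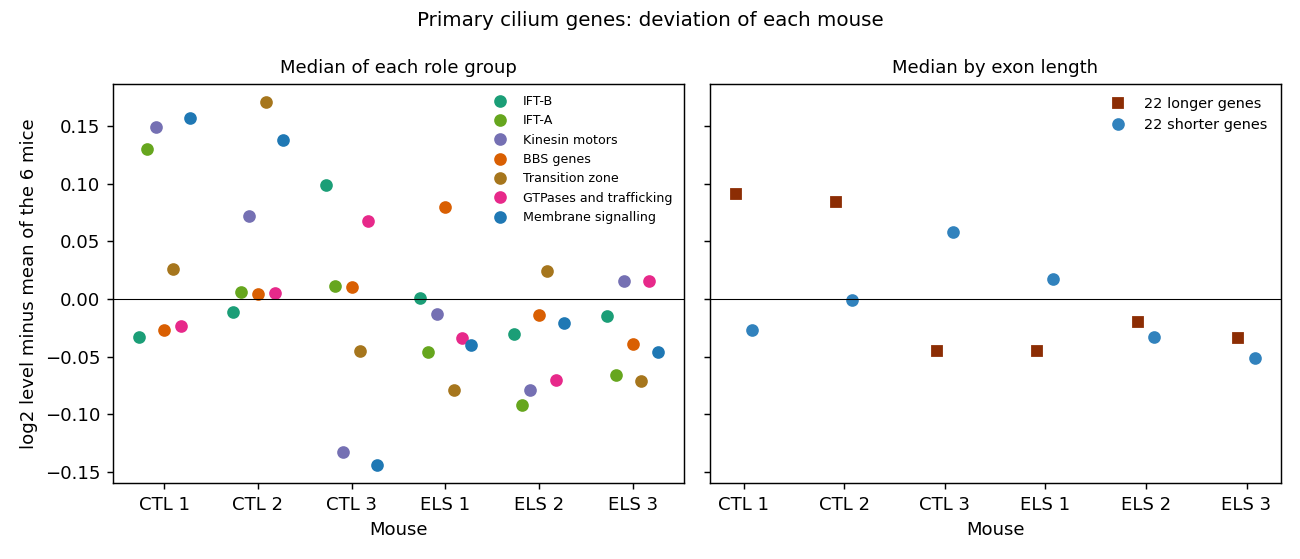
Median deviation of each mouse from the mean of all 6 mice, in log2(CPM + 0.5), for 7 role groups (left) and for the 22 longer and 22 shorter genes (right). In CTL mouse 3 the motors (-0.13) and membrane proteins (-0.14) lie lowest, and the longer genes (-0.045) lie below the shorter ones (0.058), the reverse of CTL mice 1 and 2.

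Genes of the cilium outside the 44 were counted from lists of 128 further genes, of which 104 passed the CPM minimum. None of the 104 was called with edgeR's quasi-likelihood test, and none was called by DESeq2 or the edgeR likelihood ratio test. At an unadjusted p under 0.05 there were 4 (3.85%, against 4.23% of all genes tested), and the groups did not overlap in 8 (7.69%, against 8.28%). The 24 further genes of the trains, motors and BBSome had a median log2 fold change of -0.0033, with the largest value at 0.52 for Dynlt1a, a dynein light chain. The 41 further genes of the transition zone and basal body had a median of -0.045, with the largest value at -0.29 for Nek8, a kinase of the inversin compartment. No gene of either list had an unadjusted p under 0.05. In the hedgehog pathway, which runs through the cilium, 1 of 19 genes did, Evc2 at 0.29, and the median was 0.036. Of the 11 receptors and channels, Mc4r and Npy2r did.

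Mc4r, the melanocortin receptor that localizes to cilia of hypothalamic neurons, had 2.60, 2.34 and 4.89 CPM in CTL mice and 1.71, 1.32 and 1.64 CPM in ELS mice. The groups did not overlap, although CTL mouse 3 was far above the other CTL mice. The log2 fold change was -1.07 with a standard error of 0.282 and an adjusted p of 0.705 in edgeR's quasi-likelihood test. Npy2r, a neuropeptide Y receptor, had a log2 fold change of 0.47 with overlapping groups. Of the 5 kidney cyst genes tested, Dzip1l, a transition zone gene whose loss, like that of Cys1 in the mouse, causes recessive polycystic kidney disease, had 18.6, 19.3 and 19.7 CPM in CTL mice and 14.4, 15.3 and 16.7 CPM in ELS mice. All ELS mice were below all CTL mice. The log2 fold change was -0.31 with a standard error of 0.0884 and an adjusted p of 0.826 in the same edgeR test. Of the 7 transcription factors tested for cilium genes, 5 had values below 0 and the median was -0.096, with the largest value at 0.51 for Rfx2, whose groups overlapped.

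The summed markers of 10 cell types overlapped between CTL and ELS mice in all 10 lists, and none of the markers in the table was at 0 in all mice. Oligodendrocyte markers summed to 5833 to 7752 CPM in CTL mice and 5920 to 6817 CPM in ELS mice, and microglia markers to 255 to 268 CPM and 262 to 274 CPM. All 7 cortical excitatory neuron markers had log2 fold changes below 0, from -0.20 (Fezf2) to -0.0042 (Slc17a7), with a median of -0.081 against -0.040 for the 44 cilium genes, and none had an unadjusted p under 0.05. Of the 6 endothelial and mural markers, 2 did (33.3%, against 4.23% of all genes tested), Cldn5 at 0.31 and Pdgfrb at 0.28, both higher in ELS mice with overlapping groups and neither called. Of the 9 striatal markers, 8 had values above 0, with a median of 0.16. The part of these cell types in the values of the cilium genes was not tested.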

How the data were processed

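RNA-seq counts came from PFC of 3 CTL and 3 ELS mice. The authors trimmed and aligned the reads (STAR, mm10) and used HTSeq to count those that mapped uniquely. They deposited raw counts by gene symbol, 1 column per mouse. The submitters' processing notes give STAR 2.7.1a and HTSeq 0.9.1, while the paper names an earlier STAR version. The labels and the paper name different stranded mRNA kits. The strand setting and annotation release are not given in the sources used here, so antisense overlap cannot be told apart: it covers over 5% of the exons of Adcy3, Cep290, Ift57 and Tctn1. Columns for ELS mice carry an abbreviation of social isolation, and each was assigned by its number.

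The software was edgeR 4.0.16, with limma 3.58.1 and DESeq2 1.42.0 for alternatives, under R 4.3.3. The 13185 genes reaching 1 CPM in every mouse of either group were tested. After TMM scaling, a quasi-likelihood model was fitted with condition as its only term. Adjusted p is the Benjamini-Hochberg value over all genes tested. The standard error is the log2 fold change divided by the root of its F statistic, CPM values are TMM-scaled unless said to be on total counts, and spreads are SDs over 3 mice. The 44 genes had 30 to 5806 reads per mouse, and 42 of them had at least 100 in every mouse. For single genes, counting error was not separated from the spread between mice, and its part in the small gaps was not tested. Precision was limited by 3 mice per group, and an exact permutation of 3 against 3 cannot give a p below 0.1. Mice of one group differed beyond counting noise (chi-square over its degrees of freedom at least 6.7), so no pair within a group was counted as 1 sample.

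Lengths and positions came from GENCODE M21 on GRCm38 (mm10), with all 44 genes matched, and promoters from RefSeq. Scripts were tested on simulated data. Values of 2 of the 44 genes are not reported here singly. The genes and lists were chosen with earlier results of these data known. Named with values in every mouse were Cys1, Dlec1, genes at an unadjusted p under 0.05 or with groups that did not overlap, and the largest change and highest level per length of each role group; others are given by range, and those named beside a range were picked after their values were seen. List genes were named at an unadjusted p under 0.05 or as the largest change; Wdr19, Wdr35, Ttc21b, Foxj1 and the markers given as ends of a range were named outside this rule, after their values were seen. The alternatives were DESeq2, the likelihood ratio test, limma-voom, other normalizations, filters and call rules, a block for replicate number, and fits without each mouse in turn; leaving out CTL mouse 3 and ELS mouse 1 together was chosen after seeing the data.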

Additional observations from a re-analysis of the deposited data

How the results depend on the processing

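The number of the 44 genes called was 0 and became 1 with DESeq2 (Cys1, log2 fold change -0.53, adjusted p = 0.049) and 2 with the edgeR likelihood ratio test (Cys1 at -0.53, adjusted p = 0.0102, and Dlec1 at -0.96, adjusted p = 0.0406). It was 0 in the other 15 alternatives, with a range of 0 to 0 when single mice were dropped. No gene of the further cilium lists was called in any of the 17 alternatives. Over all genes, 2 were called, against 18 with DESeq2, 28 with the likelihood ratio test, 4 without a filter, 7 with the replicate block, 27 without CTL mouse 3 and ELS mouse 1, and 1 to 29 with one mouse left out, the 29 without CTL mouse 3. The cause was not tested.

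The median log2 fold change of the 44 genes was -0.040. It ran from -0.086 (without CTL mouse 3) to -0.039 with one mouse left out and was -0.087 without CTL mouse 3 and ELS mouse 1. Cys1 ran from -0.61 to -0.46 and Dlec1 from -1.15 to -0.79 with one mouse left out. Their groups did not overlap, so their direction was fixed in these fits.

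Directions near 0 were unsettled. With upper-quartile normalization, Arl3 (0.0052) and Ift20 (0.0037) turned positive. Without CTL mouse 3 and ELS mouse 1, Ahi1 (-0.091), Arl3 (0.038), Ift43 (-0.084) and Ift20 (0.086) reversed. With one mouse left out, Ahi1 ran from -0.049 to 0.050, Arl3 from -0.038 to 0.045, Ift43 from -0.083 to 0.18, Ift20 from -0.093 to 0.082, Kif17 from -0.15 to 0.0069 and Kif3a from -0.13 to 0.043. Of the 19 genes given in every mouse by rule, those other than these 6 kept their direction in all 15 alternatives. Among these, dropping one mouse moved 6 by over 1.5 times: Ift122 to -0.092, Ift140 to -0.074 and Bbs12 to 0.16 (each without CTL mouse 1), Adcy3 between -0.16 (without CTL mouse 3) and -0.0007 (without CTL mouse 2), Tctn3 between -0.25 (without CTL mouse 3) and -0.040 (without CTL mouse 2), and Bbs4 between 0.045 (without ELS mouse 1) and 0.15 (without CTL mouse 3). Of the genes that kept their direction, Cys1, Dlec1, Ift122, Ift140, Ift27, Ift81, Bbs2 and Rpgrip1l had groups that did not overlap. Their direction was therefore fixed when mice were dropped. Pkd1, Tctn3 and Bbs12 were on the list as the largest change of their role group. The genes outside the 19 were not followed singly. Of all 44, 32 were below 0, against 29 with upper-quartile normalization, 29 without CTL mouse 3 and ELS mouse 1, and 27 (without CTL mouse 3) to 37 (without ELS mouse 1) with one mouse left out.

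Same-numbered mice had correlations of deviations of -0.145, 0.238 and -0.034, so the numbers were not taken to pair the mice. With the replicate block, 0 of the 44 genes were called.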
